A study of Homo sapiens with 2 samples.

Results

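Kinesins are motor proteins that use ATP to move along microtubules or to take their ends apart. The mitotic members build the spindle, move chromosomes and divide the cell, and their mRNAs are known to be made mainly late in the cell cycle, so that their summed level in a culture is often read as a sign of how many cells divide. The transport members carry vesicles, mitochondria and ciliary cargo and are active throughout the cycle, several of them chiefly in neurons. Members were found by symbol in the platform annotation (KIF or KIFC with a number and an optional letter), which gave 41 genes of 19775 with a probe set that names only 1 gene. They comprise 11 mitotic kinesins, 17 transport kinesins and 13 others, and 85 probe sets read them.

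The study used MKN28, an established human gastric cancer cell line which cell line registers list as misidentified and derived from a different gastric line. RNA of 1 sample labelled Sox2 overexpression, from cells infected with a lentivirus that carries Sox2 and selected with puromycin, was read on 1 array, and RNA of 1 sample labelled control on another. What the control cells received is not given in the sources used here, and neither is whether the infected cells were a clone or a pool. Since each group is 1 array, the conditions cannot be tested against each other, and every difference below is between these 2 arrays, without replicate error.

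SOX2, the transcription factor that was to be overexpressed, read 172 in the Sox2-labelled array and 123 in the control by its brightest probe set, a log2 difference of 0.49. Its other probe sets differed by 0.31, -0.023 and -0.46, so the label could not be checked by its target, and the arrays are named by their labels throughout. Levels are intensities on a linear scale, with a median over all probe sets of 34.25 in the Sox2-labelled array and 34.26 in the control, and a gene is said to pass the filter when its brightest probe set reaches 34.25 in at least 1 array. Error can be judged only on the technical side, from how far 2 probe sets of a gene differ. Over the 3471 genes that have 2 past the filter, this gave a robust SD of 0.27 for the log2 difference of 1 probe set. In 52.5% of these genes both probe sets differed in the same direction, and across them the Pearson r of the 2 differences was 0.21. Of the epithelial markers, EPCAM read 4.96 in the Sox2-labelled array and 6.32 in the control, under the median, while KRT8, KRT18, KRT19 and CDH1 passed the filter. So did all 5 mesenchymal markers, all 3 endothelial markers and 1 of 3 leukocyte markers. By their brightest probe sets, VIM read 5833 in the Sox2-labelled array and 4288 in the control, and COL1A1 557 and 576. Their other probe sets were far dimmer. The epithelial markers past the filter read 40.6 to 78.6 and 37.7 to 91.3, and the endothelial markers 67.2 to 75.2 and 65.3 to 76.1. Markers of unlike cell types thus passed at similar levels, so passing the filter does not show that a gene is expressed. All 24 spike-in probe sets for poly-A transcripts, which are added to the RNA before labelling, read lower in the Sox2-labelled array (median -0.75 on the log2 scale). If the arrays were scaled on them, all 31 kinesins then past the filter would lie above 0 and 5 would be at least 2-fold higher. At least 2-fold higher would also be 20.8% of all 15468 genes then past the filter, whose median would be 0.76. Every direction below is therefore relative to the deposited scaling.

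Across the kinesin family the arrays differed little, and 1 gene, the microtubule depolymerase KIF2A, reached a 2-fold higher reading in the Sox2-labelled array. The heavy chain of conventional kinesin, KIF5B, came next at 1.87-fold higher. None of the mitotic kinesins past the filter differed by as much as 1.5-fold. In bulk RNA, a difference in the share of dividing cells and a difference in mRNA per cell cannot be told apart. Of the 41 kinesins, 30 passed the filter, each of them in both arrays. Of the 30, 15 lay above 0 and 15 below, with a median log2 difference of -0.00075, beside 49.6% above 0 and a median of -0.0032 for all 14253 genes past the filter.

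At least 2-fold higher were 1 of 30 kinesins (3.33%) against 2.05% of all genes past the filter, and at least 2-fold lower were 0 of 30 against 0.645%. At 1.5-fold, 2 of the 30 were higher, against 6.46% of all genes, and none was lower, against 3.77%. These counts are close to what the whole array gave, so they single out no family-wide difference. Within 1 technical SD of 0 lay 21 of the 30 kinesins (70%), against 64.7% of all genes.

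**Figure D1:**
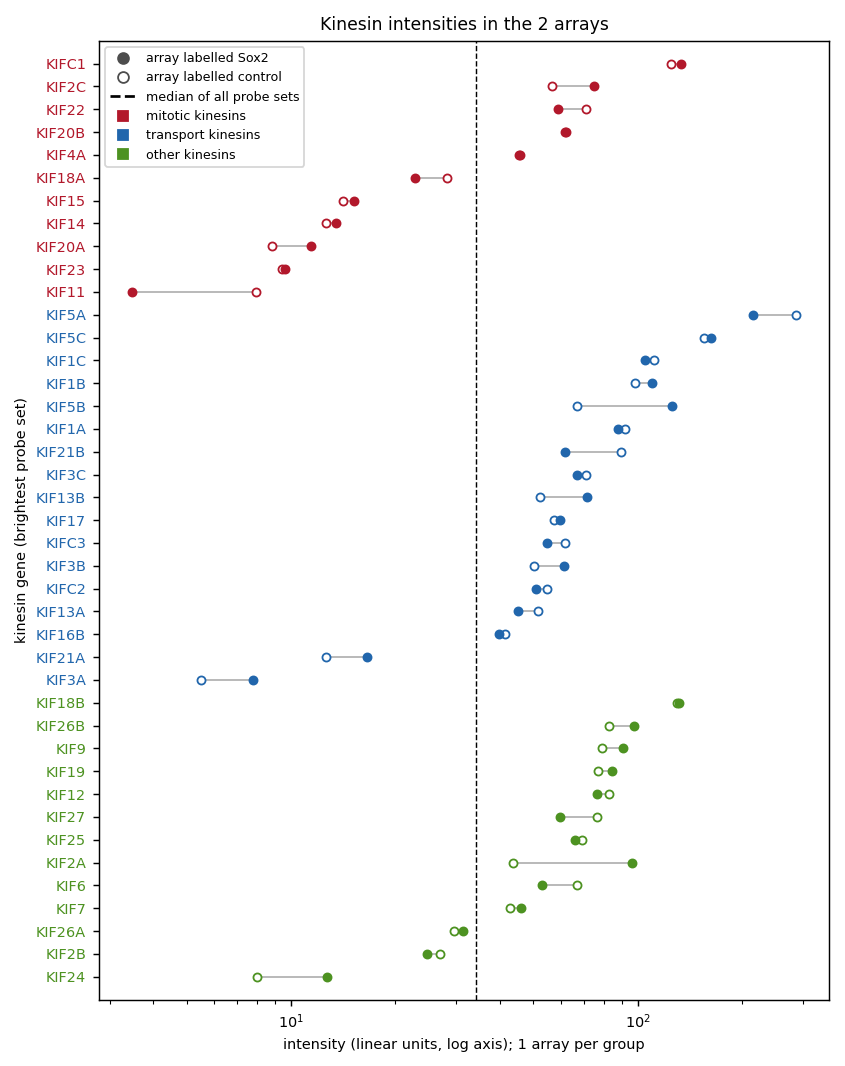
Intensity of the brightest probe set of each of the 41 kinesin genes, on a log axis, in the Sox2-labelled array (filled) and in the control (open), with 1 array per group and no error bar. Mitotic kinesins are red, transport kinesins blue and others green; 6 of the 11 mitotic kinesins lie left of the dashed line at the median of all probe sets, 34.25, and the widest gaps right of it belong to KIF2A and KIF5B.

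The mitotic kinesins that build the spindle and move chromosomes were read at low to moderate intensities. KIF11, the motor that pushes the spindle poles apart, read 3.48 in the Sox2-labelled array and 7.91 in the control, both far under the filter. Its log2 difference of -1.18 is the lowest of the family, but it rests on a single probe set, and the robust SD of the differences of the 500 genes nearest in level was 0.62. Among genes not past the filter, 1.54% were at least 2-fold lower. KIF15, which can stand in for KIF11 at the spindle, read 15.2 and 14.1, a log2 difference of 0.10, also under the filter. These motors for spindle bipolarity thus lay too low to be compared.

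KIFC1, a minus-end directed motor that gathers spindle poles and extra centrosomes, was the brightest of the mitotic group, at 133 in the Sox2-labelled array and 125 in the control (log2 difference 0.090). KIF4A, a chromatin-bound motor that also sets the length of the midzone, read 45.4 and 45.7. KIF4A has a near-identical copy, KIF4B, which has no probe set of its own here, so its value may hold signal of both. KIF22, another chromosome-bound motor, read 59.05 and 71.1, a log2 difference of -0.27, and its other probe set gave -0.28. KIF18A, which damps the swings of aligned chromosomes, read 22.8 and 28.25, under the filter. By their brightest probe sets, KIFC1, KIF4A and KIF22 lay within 1 technical SD of 0.

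KIF2C takes microtubule ends apart at centromeres, and its probe sets disagreed. The brighter read 74.7 in the Sox2-labelled array and 56.8 in the control (0.40 on the log2 scale). The other read 52.6 and 63.9 (-0.28), so the direction of KIF2C depends on the probe set.

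The motors of the midzone and of cytokinesis were mostly dim. KIF23, the motor subunit of centralspindlin, read 9.61 in the Sox2-labelled array and 9.45 in the control. KIF20A, which takes the chromosomal passenger complex to the midzone, read 11.4 and 8.79 (log2 difference 0.38), and KIF14, which acts in the last step of division, read 13.5 and 12.6 (0.10). These 3 genes did not pass the filter. KIF20B, a further motor of late division, read 62.3 and 61.8 by its brightest probe set (0.010), and its other probe sets differed by 0.25 and 0.22. Those 3 KIF20B probe sets passed the filter and lay on 1 side, within 1 technical SD of 0.

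In all, 5 of the 11 mitotic kinesins passed the filter, against 15 of 17 transport kinesins, 10 of 13 others and 72.1% of all genes. Probe sets bind with different strength, so this does not rank the groups by mRNA abundance. The median log2 difference of the 5 that passed was 0.010, with a range from -0.27 to 0.40, and that of all 11 was 0.024. Of the 11, 7 lay above 0 and 4 below, against 49.5% above 0 among all 19775 genes with no filter. Under the filter were 6 of the 11, so this split rests largely on levels too low to be compared.

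Most mitotic kinesins held the letters of a promoter element. The cell cycle genes homology region, CHR, is a short element of genes transcribed late in the cell cycle, where the DREAM and MuvB complexes bind. RefSeq promoters of build GRCh38.p14, from 250 bases before to 50 after the start site, were found for 33 of the 41 kinesins. Each was searched on both strands for TTTGAA and TTCGAA, the usual and a variant form, which reads alike on both strands. A match was present for 9 of 11 mitotic kinesins (81.8%), 1 of 12 transport kinesins (8.33%) and 2 of 10 others, against 19.5% of all 27305 genes in the promoter table. The match of the transport group was in KIF5B and those of the others in KIF18B and KIF24. CCAAT, a box that often lies before a CHR, was matched in 9 of 11 mitotic, 4 of 12 transport and 4 of 10 other kinesins, against 39.7% of all genes. A match is a string of letters, not a shown site, and the members were grouped by function, not by sequence. KIF20A and KIF2C were the mitotic kinesins with no match. The matches of the 9 others are printed because they show these letters in their setting, with the letters of a CHR match in capitals (TTCAAA is TTTGAA on the other strand). The KIF20B line also holds another match, left in lower case. Each line is 30 bases of the gene's strand.
KIF11, chr10:92593090-92593119, plus strand: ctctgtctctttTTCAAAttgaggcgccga
KIF14, chr1:200620733-200620762, minus strand: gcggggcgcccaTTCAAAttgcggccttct
KIF15, chr3:44761747-44761776, plus strand: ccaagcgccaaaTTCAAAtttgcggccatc
KIF18A, chr11:28108149-28108178, minus strand: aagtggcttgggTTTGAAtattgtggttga
KIF20B, chr10:89701602-89701631, plus strand: tggccgccattgTTTGAAtttgaaaacggt
KIF22, chr16:29790712-29790741, plus strand: ggcaccggggaaTTCGAAtgggagaggcgg
KIF23, chr15:69414282-69414311, plus strand: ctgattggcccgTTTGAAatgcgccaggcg
KIF4A, chrX:70290058-70290087, plus strand: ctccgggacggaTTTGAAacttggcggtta
KIFC1, chr6:33391815-33391844, plus strand: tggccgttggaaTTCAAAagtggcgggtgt

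In KIF11, KIF15, KIF18A, KIF22, KIF23 and KIF4A the first base of the match lay between 55 and 10 bases before the start site, at -28, -35, -10, -27, -55 and -34. KIF22 has a second promoter entry, with a later start site, where the same match lies at -244. In the other 3 the match lay within the transcript, at base 2 of KIF14, base 5 of KIFC1 and base 25 of KIF20B, which holds another at base 31. Of the 9 genes, 4 passed the filter, with log2 differences of 0.090 for KIFC1, 0.010 for KIF20B, -0.012 for KIF4A and -0.27 for KIF22.

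Among the transport kinesins, the heavy chains of conventional kinesin, which carry vesicles and mitochondria with the kinesin light chains, differed from each other. KIF5B, the form found in most cells, read 126 in the Sox2-labelled array and 67.0 in the control, giving a log2 difference of 0.91. The 500 genes nearest in level had a robust SD of 0.25. Its other probe sets were under the filter and read 32.8 and 24.9 (0.40), and 11.8 and 14.25 (-0.27). KIF5A and KIF5C are known as neuronal forms. KIF5A read 215 and 287 (-0.41), but its other probe sets differed by -0.030 and -0.045 only. KIF5C read 163 and 155, and its 3 probe sets lay between 0.033 and 0.080. KIF5B was thus the only heavy chain of the 3 that read over 1.5-fold apart in the arrays.

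KIF1A, KIF1B and KIF1C, a group of vesicle motors, were within 1 technical SD of 0 by their brightest probe sets, while some of their relatives were not. KIF1A, which carries precursors of synaptic vesicles, read 88.0 in the Sox2-labelled array and 91.7 in the control (-0.058), KIF1B 110 and 98.2 (0.17), and KIF1C 105 and 111 (-0.083). KIF16B, a motor of early endosomes, read 39.8 and 41.5 (-0.059). KIF13B, a related motor, read 71.5 and 52.3, a log2 difference of 0.45 by its only probe set. KIF13A, which carries endosomal cargo, read 45.1 and 51.75 (-0.20) by the brightest of its 6 probe sets, and the others ranged from -0.38 to 0.88. The 2 KIF13A probe sets past the filter both lay below 0.

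The KIF3 motors drive transport inside cilia. KIF3A read 7.75 in the Sox2-labelled array and 5.51 in the control, under the filter, with 0.49 and 0.62 by its 2 probe sets. KIF3B, its usual partner, read 61.2 and 50.2 (0.29), but a log2 difference of 0.0028 was given by its other probe set. KIF3C, an alternative partner, read 66.8 and 71.1 (-0.090). KIF17, a motor of cilia and dendrites, read 59.7 and 57.2 (0.061).

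KIF21B, which pauses microtubule growth, had the lowest difference of the family past the filter. It read 61.7 in the Sox2-labelled array and 89.4 in the control, with a log2 difference of -0.53 or 1.45-fold lower, by its only probe set. The robust SD at that level was 0.23. Its relative KIF21A read 16.6 and 12.6 (0.40), under the filter, and -0.76 by another probe set. The minus-end directed motors KIFC2, at 50.9 and 54.9, and KIFC3, at 54.8 and 61.8, differed by -0.11 and -0.17.

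Of the remaining kinesins, KIF2A stood apart. It depolymerises microtubules at spindle poles and in neurons and lies in neither group of the rule. KIF2A read 96.2 in the Sox2-labelled array and 43.6 in the control, giving a log2 difference of 1.14 or 2.21-fold higher, against a robust SD of 0.27 at that level. Its other probe set, under the filter, read 24.9 and 20.01 (0.31). The brightest KIF2A and KIF5B probe sets have names ending in _s_at, a class that can match several transcripts. Without such probe sets and those ending in _x_at, neither gene passed the filter, with log2 differences of 0.31 and -0.27. Averaging all probe sets gave 0.73 and 0.35, both under 2-fold.

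KIF24, a depolymerase at the mother centriole, read 12.7 in the Sox2-labelled array and 7.96 in the control (0.68), under the filter. KIF2B read 24.7 and 27.0 (-0.13), also under the filter. KIF2C, a relative past the filter, gave 0.40 and -0.28 by its 2 probe sets. Whether the relatives of KIF2A shared its difference thus cannot be read from these values. KIF18B, a mitotic motor outside the rule's list, was one of the 5 brightest kinesins and read 132 and 130. The other 9 genes, among them the ciliary motors KIF6, KIF7, KIF9 and KIF19, ranged from -0.36 to 0.23.

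**Figure D2:**
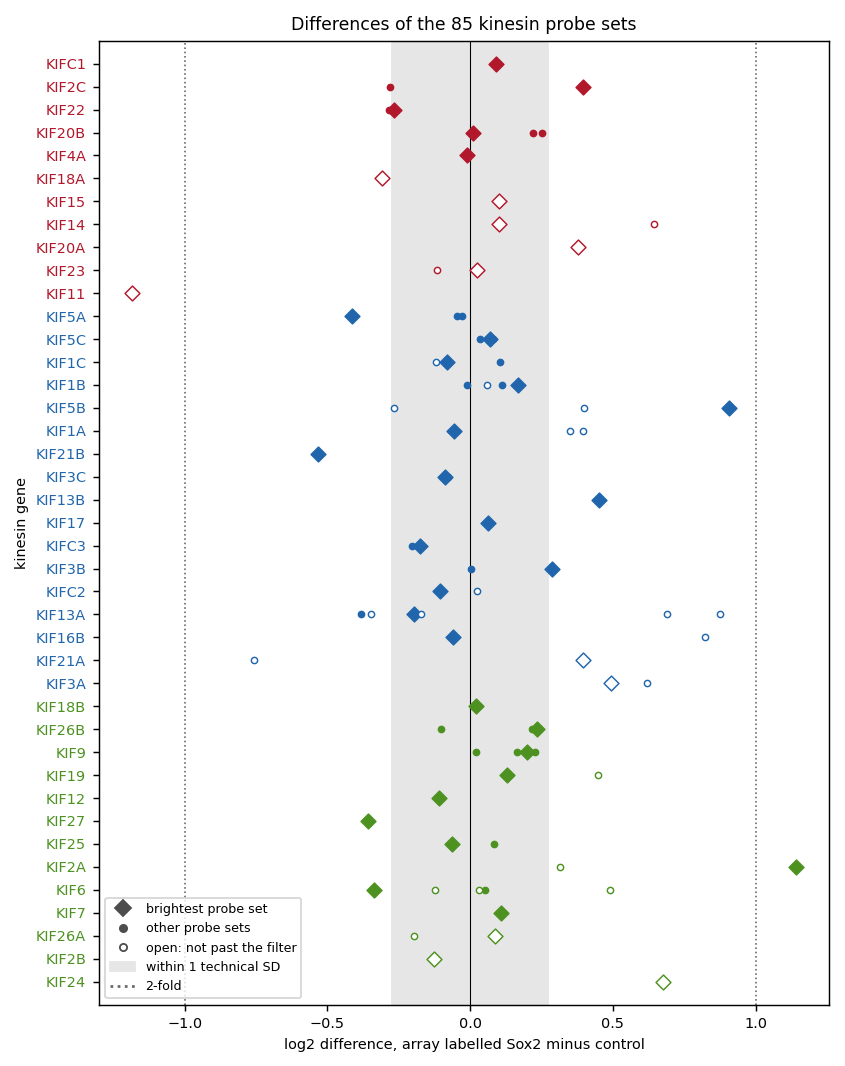
Log2 difference, array labelled Sox2 minus control, of each of the 85 kinesin probe sets, by gene. Diamonds are the brightest probe sets, open symbols did not pass the filter, the grey band is 1 technical SD (0.27) on each side of 0 and dotted lines mark 2-fold; KIF2A at 1.14 is the one filled symbol past a dotted line, and its second probe set lies at 0.31.

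Because KIF2A and KIF5B are the 2 kinesins past the filter that were at least 1.5-fold higher in the Sox2-labelled array, their promoters are shown, as the 250 bases before the RefSeq start site in GRCh38.p14. Capitals in KIF5B mark TTTGAA and ATTGG, which is CCAAT on the other strand. In KIF2A none of the searched letters were present, so it has no capitals.
KIF2A, chr5:62305956-62306205, plus strand: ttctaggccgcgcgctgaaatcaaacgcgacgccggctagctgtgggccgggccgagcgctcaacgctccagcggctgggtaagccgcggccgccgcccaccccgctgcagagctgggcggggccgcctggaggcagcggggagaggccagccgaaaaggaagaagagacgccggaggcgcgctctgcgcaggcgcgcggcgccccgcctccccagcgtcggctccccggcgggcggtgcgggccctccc
KIF5B, chr10:32056426-32056675, minus strand: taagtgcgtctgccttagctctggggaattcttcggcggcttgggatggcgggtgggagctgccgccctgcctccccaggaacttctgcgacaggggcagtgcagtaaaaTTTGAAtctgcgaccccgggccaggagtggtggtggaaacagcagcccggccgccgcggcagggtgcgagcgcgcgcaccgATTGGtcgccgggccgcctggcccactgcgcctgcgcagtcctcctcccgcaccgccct

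In KIF5B, TTTGAA began 140 bases before the start site, at -140, and ATTGG at -59. CATTGT and CTTTGT, core letters of the motif that SOX proteins bind, were also searched on both strands. CATTGT was matched in 4 of 33 kinesin genes, KIF15, KIF1B, KIF20B and KIF5C, against 13.0% of all genes. CTTTGT was matched in 5 of 33, KIF18B, KIF1A, KIF20A, KIF21A and KIF2B, against 19.0% of all genes. Neither was found in the windows of KIF2A or KIF5B, which says nothing about binding elsewhere.

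Set against each other, mitotic and transport kinesins had medians near 0, and genes are not replicates, so their gap has no error to be held against. The median log2 difference was 0.010 for the 5 mitotic and -0.059 for the 15 transport kinesins past the filter, 0.070 apart, and 0.024 and -0.058 over all 11 and all 17. With probe sets averaged the gap was -0.0039, so its sign depends on the processing. The transport group was wider, from -0.53 to 0.91, than the mitotic group, from -0.27 to 0.40, but it also has more members. Adding KIF2A and KIF18B, the members of a wider mitotic list that passed the filter, gave a mitotic median of 0.019. Without probe sets ending in _x_at and _s_at, 2 mitotic genes remained, and their median was -0.15.

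**Figure D3:**
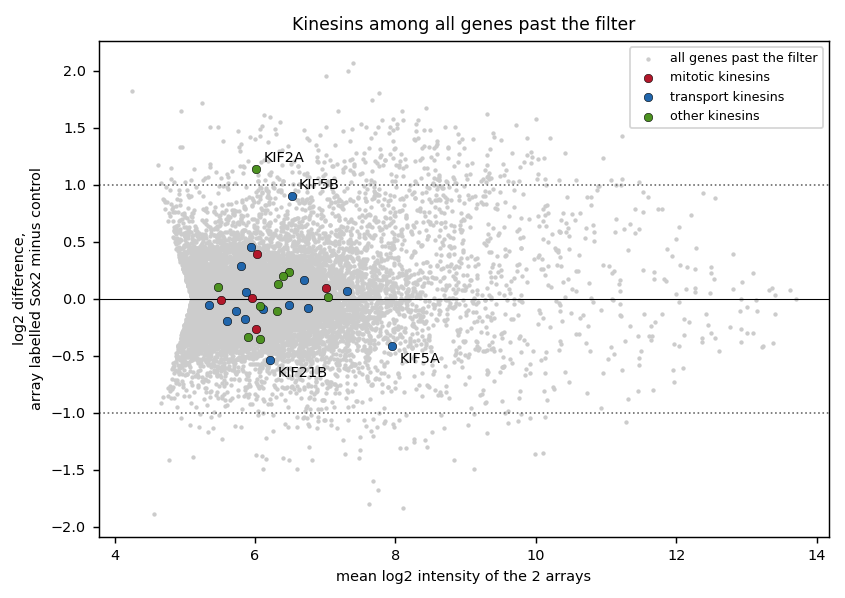
Log2 difference, array labelled Sox2 minus control, against the mean log2 intensity of the 2 arrays for the 14253 genes past the filter (grey) and the 30 kinesins among them. Dotted lines mark 2-fold; KIF2A (1.14) lies above the upper line and KIF5B (0.91) just under it, and the other kinesins lie between -0.53 (KIF21B) and 0.45.

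Several probe sets passed the filter for 15 kinesins. In 9 of the 15 they lay on a common side of 0 (60%), against 2371 of 5495 genes (43.1%), a difference that was not tested. The median range of the log2 difference between such probe sets was 0.19 for kinesins and 0.35 for all genes. Levels differed by a median of 2.38-fold between the probe sets of a kinesin and by up to 16.7-fold, for KIF1A. Over the 41 kinesins the Spearman rho of genomic length and log2 difference was 0.055, and over the 30 past the filter it was 0.085. Over 14232 genes past the filter it was 0.15, given as a description.

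Proteins that work with kinesins were described from 3 lists, none of whose medians was over 0.1 in size. Of the mitotic partners (spindle, kinetochore and cytokinesis genes and mitotic cyclins), 14 of 26 with a probe set passed the filter and none reached 2-fold, with 7 above 0 (50%, against 49.6% of all genes) and a median of 0.024. The largest difference among the 14 was that of CCNB1, the cyclin that starts mitosis, at 50.03 in the Sox2-labelled array and 25.3 in the control (0.98). Another, dim probe set of CCNB1 gave 0.12. The control value of 25.3 is under the filter, so CCNB1 entered the list only by its value in the Sox2-labelled array, where it is high.

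Cargo adaptors and light chains, which link kinesins to their loads, lay close to 0 as a list. Of 15 past the filter, 11 were above 0 (73.3%, against 49.6% of all genes), with a median of 0.071, and none reached 2-fold in either direction, against 2.05% of all genes higher and 0.645% lower. The median ran from -0.00011 to 0.12 over the alternatives other than scaling on the spike-ins. KLC3, a light chain, differed most, at 128 in the Sox2-labelled array and 95.9 in the control (0.42), but its 2 other probe sets gave 0.39 and -0.82. KIFAP3, the cargo-binding partner of KIF3A and KIF3B, read 8.46 and 6.87, under the filter.

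Cytoplasmic dynein and dynactin, the complex that walks the opposite way, held 2 of 21 members (9.52%) at least 2-fold higher and none lower, against 2.05% and 0.645% of all genes past the filter. DYNC1LI2, a light intermediate chain, read 625 in the Sox2-labelled array and 240 in the control (2.61-fold higher). The 2 further probe sets of DYNC1LI2 that passed the filter gave 0.11 and 0.12 on the log2 scale. DYNC1H1, the motor heavy chain, read 425 and 189 (2.25-fold higher), and the 4 more that passed the filter gave 0.46, -0.11, 0.088 and 0.013. On the log2 scale the brightest probe sets differed by 1.38 for DYNC1LI2 and 1.17 for DYNC1H1. The 500 genes nearest in level had a robust SD of 0.64 and 0.52, wider than the 0.27 at the level of KIF2A. The share of 2.05% covers genes of all levels past the filter. At 1.5-fold, 4 of the 21 were higher, against 6.46% of all genes, and 1 was lower, against 3.77%. The lower gene was DCTN3, a dynactin subunit, at 76.7 in the Sox2-labelled array and 147 in the control (-0.94), by its only probe set. The list's median was 0.022, with 11 of 21 above 0.

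**Figure D4:**
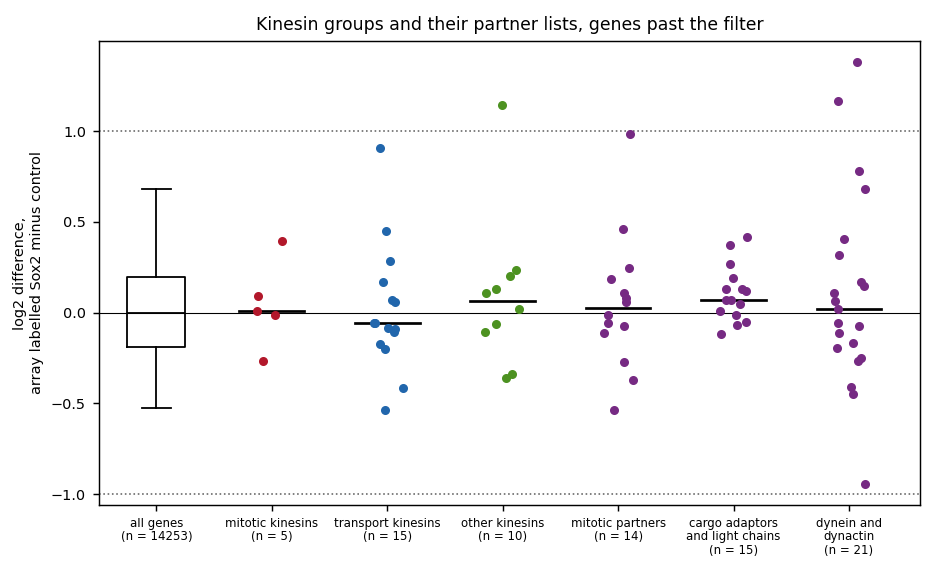
Log2 difference, array labelled Sox2 minus control, of genes past the filter in each kinesin group and partner list (points, with the median as a bar) and of all 14253 genes (box from the 25th to the 75th percentile, whiskers at the 5th and 95th). Dotted lines mark 2-fold; all list medians lie between -0.059 and 0.071, and the points past 2-fold are KIF2A among the other kinesins and DYNC1LI2 and DYNC1H1 among dynein and dynactin.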

How the data were processed

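The authors deposited 1 intensity per array, on a linear scale, for each of 54675 probe sets. RMA is the only tool in the submitters' processing notes; for its version, settings and last step, the sources used here give nothing. RMA usually ends in log2 values, but these are linear.

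Values were taken to log2 with a lowest intensity of 1 and no further scaling. The platform annotation names exactly 1 gene at 41091 probe sets, more at 1801 and no gene at 11721; only the first kind was used. The probe set with the highest mean over the 2 arrays stood for its gene. The filter asks that the higher of its 2 values reach 34.25, which 14253 of 19775 genes did. Technical SD is the median absolute deviation, scaled to a normal SD, of the difference between 2 probe sets, over the square root of 2. With 1 array per group no p-value is given, and genes were counted at 2-fold. The number of arrays limits the precision.

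The kinesins, gene lists and alternatives were chosen with earlier results of these data known, and the SOX letters after the values were seen. Named are SOX2, the mitotic and transport kinesins, other kinesins at 1.5-fold or among the 5 brightest, of each partner list up to 4 members at 2-fold or the largest difference, and marker genes. KIF2B, KIFAP3, DCTN3 and the ciliary motors were named after their values were seen. Transport kinesins are not listed by the rule and were set by function. Counting was tested on simulated data with noise smaller than the technical SD. That test does not show how many false counts the real noise gives. Promoters came from RefSeq (GRCh38.p14); protein sequences were not used here. Alternatives covered probe set choice, filter, scaling, fold and group members. Python 3.11.15, numpy 2.4.6, pandas 2.3.3, statsmodels 0.14.6 and matplotlib 3.10.9 were used.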

Additional observations from a re-analysis of the deposited data

How the results depend on the processing

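No paired analysis was possible because each group has 1 array, and no replicate could be left out. A count was held to 1.5 times its value, and a median to the SD that the technical spread gives a median of that many genes, which leaves out real spread between genes. Of 138 recomputed counts and medians, 24 moved by more. The kinesins at least 2-fold higher numbered 0 when probe sets were averaged, 0 when those ending in _x_at and _s_at were left out, 2 at 1.5-fold and 5 with the spike-ins set equal; with no filter, 1 kinesin (KIF11) was at least 2-fold lower. Mitotic partners at least 2-fold higher numbered 1 with no filter, 1 at 1.5-fold and 4 with the spike-ins set equal, and cargo adaptors 3 with the spike-ins set equal. Dynein and dynactin genes at least 2-fold higher numbered 0 with averaged probe sets, 1 with quantile normalization, 4 at 1.5-fold and 7 with the spike-ins set equal, and 1 was lower at 1.5-fold. With the spike-ins set equal, 20.8% of all 15468 genes then past the filter were at least 2-fold higher. Setting the spike-ins equal shifts all genes upward by 0.75 on the log2 scale, and by its construction moved the medians to 0.76 for mitotic kinesins, 0.69 for transport kinesins, 0.82 for mitotic partners, 0.82 for cargo adaptors and 0.77 for dynein and dynactin, with all 31 kinesins then past the filter above 0. Over the other alternatives the median ran from -0.15 to 0.057 for mitotic and from -0.062 to 0.061 for transport kinesins, and their difference from -0.089 to 0.11, so its sign depends on the setting. The mitotic median of -0.15 came without _x_at and _s_at probe sets, which left 2 genes, and the transport median of 0.061 with averaged probe sets. The mitotic partners had -0.095 with averaged probe sets and -0.075 without _x_at and _s_at ones, and dynein and dynactin -0.064 with the filter at the 75th percentile, so those medians changed sign too; the cause was not tested. Intensities under the filter limit 6 mitotic kinesins, whose differences cannot be read.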

Other observations

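Probe sets of 4 antisense transcripts that overlap kinesin genes were read apart from the kinesins, and strand-specific overlap with the kinesin probe sets was not tested. KIF23-AS1 read 37.5 in the Sox2-labelled array and 49.96 in the control (-0.41 on the log2 scale). KIF9-AS1 read 54.1 and 52.5. The probe sets of KIF25-AS1 differed by 0.16, -0.056 and 0.34, the last under the filter, and KIF1C-AS1, also under it, read 30.3 and 32.1.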
